A study of Mus musculus with 8 samples.

Results

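The cytosolic DNA sensing and STING pathway was followed in S0 cells of the E12.5 mouse fetal liver through 9 genes chosen by name. These were Cgas and Tmem173 (the gene of STING), the restraining enzymes Trex1 and Samhd1, the kinases Tbk1 and Ikbke, the transcription factor Irf3, and the further sensors Zbp1 and Aim2. All 9 were found among the 52636 genes of the count table, and all 9 passed the low-count filter that kept 17378 genes for testing.

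S0 cells are the live, lineage-negative cells of the fetal liver that carry neither CD71 nor Ter119 on their surface, and were sorted by FACS after cells bearing lineage markers such as CD11b and Ly6G/Ly6C had been gated out. RNAseq libraries were made from 4 wild-type (WT) and 4 DKO samples, DKO being embryos without both Vps13a and Vps13c, which encode bridge-like lipid transfer proteins. As the study describes, the mice were kept on a C57BL/6J background, the Vps13a mutation removed an exon in all tissues after FLP and beta-actin-Cre breeding, and DKO embryos came from intercrosses in which each parent was Vps13a+/- and Vps13c-/-. The control libraries are labelled wild type, and embryos that are wild type at both genes cannot arise from such intercrosses, so that litter and genotype cannot be told apart if the label holds at both. The text of the study also names WT embryos beside this cross, and whether the controls carried intact Vps13c was not tested. The labels do not say that each library came from a separate embryo, and p-values therefore measure only the spread between these libraries.

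The pathway works as a relay. The enzyme cGAS binds DNA in the cytosol and makes the cyclic dinucleotide cGAMP, which activates STING on the endoplasmic reticulum. STING moves to the Golgi and recruits TBK1, or its relative IKKε (Ikbke), which phosphorylates IRF3 so that interferon genes are transcribed. TREX1 degrades cytosolic DNA and SAMHD1 degrades deoxynucleotides, and both thereby restrain the pathway. AIM2 binds DNA and assembles an inflammasome, and ZBP1 binds Z-form nucleic acid and couples it to RIPK3. All of these steps act on proteins, and mRNA levels do not report whether STING or IRF3 was active.

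In DKO S0 cells Trex1 rose and 3 other members fell, Tmem173, Aim2 and Tbk1. Trex1 increased 2.78-fold, and Tmem173, Aim2 and Tbk1 were at 49.7%, 38.4% and 64.0% of WT. The other 5 members, Cgas, Samhd1, Ikbke, Irf3 and Zbp1, did not pass the test. In all, 4 of the 9 members passed, beside 21.6% of all genes tested. The count of 1 member higher and 3 lower at an adjusted p under 0.05 stands beside 10.7% of all genes tested that were higher and 10.8% that were lower. With a log2 fold change beyond 1 also required, 1 member was higher and 2 were lower (Tmem173 and Aim2), beside 6.19% and 2.43% of all genes. The median log2 fold change was -0.07 over the members and 0.03 over all genes tested.

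**Figure D1:**
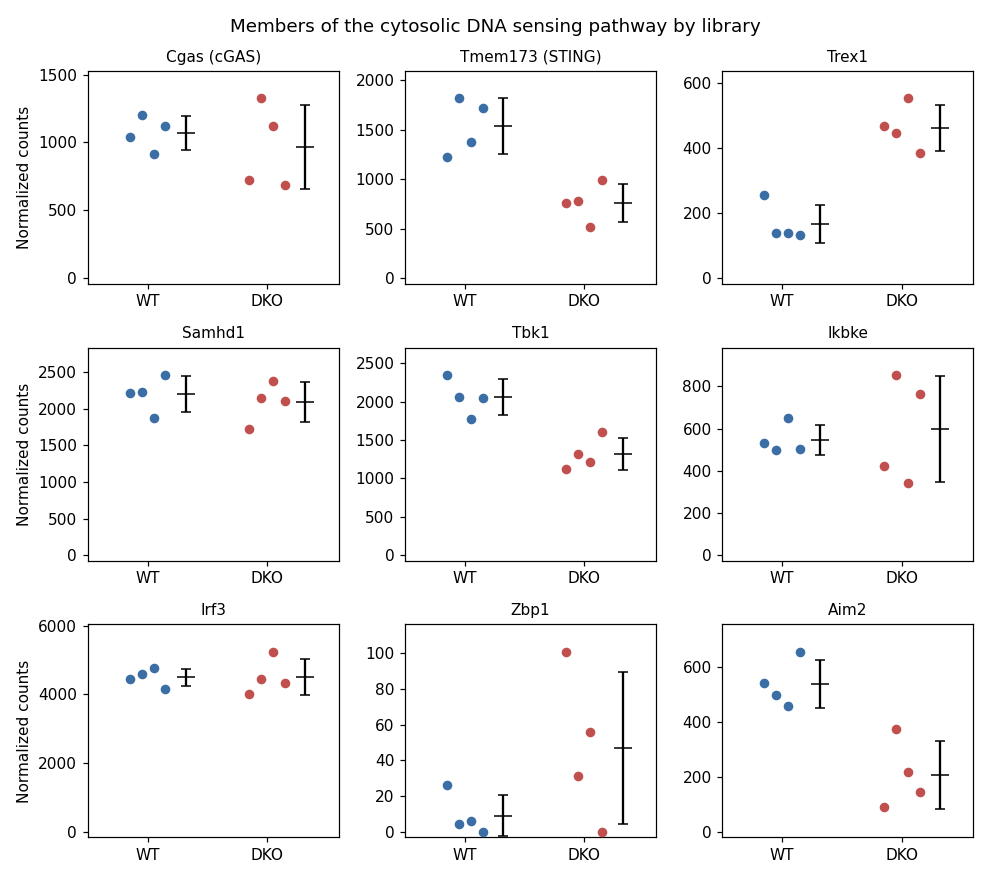
Normalized counts (vertical axes, starting at 0) of the 9 members in each of the 4 WT and 4 DKO libraries (points, in replicate order), with mean and SD as bars. The genotypes do not overlap for Tmem173, Trex1, Tbk1 and Aim2, and overlap for the other 5 genes.

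Values are given as normalized counts, that is, counts scaled by TMM to a library of average effective size. Total counts were 42114489 to 50886469 in WT and 36981439 to 42587815 in DKO. Erythroid markers were present in every library, and Klf1 and Gata1, the central erythroid transcription factors, were at 12312 and 8818 normalized counts on average in WT and 12795 and 8235 in DKO. Markers of other cells were present as well and moved with the genotype. The summed granulocyte and monocyte markers were 104380 to 136300 in WT and 5455 to 46422 in DKO, the macrophage markers 5617 to 7825 and 1465 to 3103, and the mesenchyme markers 1928 to 5485 and 11762 to 41590. The granulocyte and monocyte sum was mostly Mpo, and the macrophage sum mostly Lyz2 and Csf1r (3594 and 2196 on average in WT). Both Lyz2 and Csf1r were lowest in DKO replicate 1. By contrast, C1qa, C1qb, C1qc, Mrc1 and Mertk were highest in that library, at 83.0, 128, 79.9, 87.2 and 393. Of 12 macrophage markers tested, 3 had positive and 9 negative log2 fold changes. Lymphoid markers summed to 8464 to 9605 in WT and 4695 to 8209 in DKO. That sum was mostly Ptprcap, at 6897 and 6062 on average (log2 fold change -0.19, edgeR adjusted p = 0.410). All 7 lymphoid markers tested had negative log2 fold changes. Rag2 and Nkg7 passed as lower (-3.05 and -1.14), beside 10.8% of all genes tested. Endothelial markers summed to 2752 to 3623 in WT and 1660 to 1999 in DKO, and dendritic markers to 7555 to 8687 and 9090 to 15493. The dendritic sum was dominated by the interferon-induced Bst2, and without it the other 7 markers summed to 5324 to 6740 in WT and 940.4 to 3008 in DKO, with Flt3, Irf8 and Siglech lower and Xcr1 higher. Hepatoblast and megakaryocyte markers overlapped between the genotypes in their sums. The hepatoblast sum was mostly Afp (305520 on average in WT). Alb, Ttr, Apoa1 and Serpina1a were lower without overlap (log2 fold changes -1.05, -0.90, -1.02 and -0.83), beside 28.1% of all genes tested that did not overlap. Afp, Hnf4a and Dlk1 overlapped. None of the hepatoblast markers passed by edgeR (smallest adjusted p 0.0627, Alb). In bulk samples, fewer cells of a type and less RNA per cell cannot be told apart. Of the targeted genes, Vps13a fell in DKO by 1.29 on the log2 scale (edgeR adjusted p = 0.00247), whereas Vps13c over the whole gene did not differ detectably (log2 fold change 0.49, edgeR adjusted p = 0.182), a count that does not check the label at this gene. Replication-dependent histone mRNAs, which lack a poly(A) tail, were higher in DKO for 12 of 16 genes tested, beside 10.7% of all genes. The part of RNA selection in the results was not tested. DKO replicates 1, 2 and 4 carried high Xist and at most 41.0 normalized counts of the Y-linked Ddx3y. DKO replicate 3 was the only DKO library that resembled the WT libraries in both. Sex and genotype were therefore largely confounded, and the part of sex in the differences was not tested.

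The sequence upstream of the start site is shown for the 2 members that fell and whose upstream window could be read without exons of a neighbour, Aim2 and Tbk1, together with Isg15 as an interferon-stimulated gene (ISG) that rose. Tmem173, which also fell, had no entry among the promoter sequences and was not searched. Capitals mark matches to GAAA, 2 bases of any kind and GAAA again, on either strand, the core of the interferon-stimulated response element (ISRE). The sequences are from RefSeq on GRCm38.p6, run 5′ to 3′ toward the gene, and end where the first annotated exon or the start site is reached. That of Aim2 lies before its RefSeq start and inside the longer GENCODE span of the gene.
Aim2 (plus strand, chr1:173420354-173420570): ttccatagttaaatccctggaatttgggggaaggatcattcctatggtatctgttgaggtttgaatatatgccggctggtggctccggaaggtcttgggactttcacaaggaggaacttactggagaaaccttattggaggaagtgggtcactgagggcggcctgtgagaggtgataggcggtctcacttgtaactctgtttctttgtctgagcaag
Tbk1 (minus strand, chr10:121586795-121587044): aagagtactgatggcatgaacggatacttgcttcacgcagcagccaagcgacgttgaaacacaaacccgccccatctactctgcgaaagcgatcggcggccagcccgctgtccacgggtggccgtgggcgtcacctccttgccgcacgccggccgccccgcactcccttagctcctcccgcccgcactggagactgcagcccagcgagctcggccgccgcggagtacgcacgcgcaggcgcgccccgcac
Isg15 (minus strand, chr4:156200819-156201068): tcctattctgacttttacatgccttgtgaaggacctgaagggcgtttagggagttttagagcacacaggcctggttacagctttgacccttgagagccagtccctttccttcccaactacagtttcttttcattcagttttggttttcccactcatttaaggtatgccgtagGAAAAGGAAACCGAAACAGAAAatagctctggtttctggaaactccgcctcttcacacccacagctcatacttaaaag

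The window of Isg15 held 3 overlapping matches, with first bases at 78, 72 and 66 bases before the start site, and those of Aim2 and Tbk1 held none. Of the 9 members, 7 had an entry, all but Tmem173 and Zbp1, with 8 windows of 250 bases in all. Of these windows, 0 of the 8 held the ISRE letters, which were found in 2.98% of all 32851 promoter windows of that length. The letters TTCNNNGAA of the gamma-activated site were present in 1 of the 8 windows, that of Samhd1, against 7.02% of all windows. The letters GGGA, 1 base of any kind and TTTCC of a kappaB site, searched on both strands, were in 0 of the 8 and in 0.356% of all windows. These are matches of letters in a short window and describe neither binding nor use. Both windows of Trex1 hold exon bases of Atrip and are not printed.

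The sensor cGAS did not pass the test. Cgas (ENSMUSG00000032344.17, minus strand of chromosome 9 from 78430526 to 78443237, in GRCm38 as for all members) had 1037, 1202, 915 and 1124 normalized counts in WT replicates 1 to 4 and 726, 1329, 1124 and 686 in DKO. The DKO libraries lay on both sides of the WT range. The difference of DKO from WT was -0.15 on the log2 scale (SE 0.22, adjusted p = 0.673 by edgeR), with a 95% interval of -0.64 to 0.34, or 64.4% to 127% of WT.

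Tmem173 (ENSMUSG00000024349.9, minus strand of chromosome 18 from 35733679 to 35740554) encodes STING. It had 1221, 1821, 1375 and 1719 normalized counts in WT against 764, 775, 520.1 and 989 in DKO. The genotypes were fully separated, with DKO lower (exact permutation test of log2 CPM, which is the count scaled to library size, two-sided, p = 0.0286, which is the smallest value possible with 70 arrangements). Its mean fell from 1534 ± 283 to 762 ± 192 (SD, n = 4 each), or -1.01 on the log2 scale (SE 0.20, adjusted p = 0.0103 by edgeR, 95% interval -1.47 to -0.55). The estimate lies at the fold threshold. It fell short of that with upper-quartile scaling (-0.90), with at least 10 counts in every library (-0.99) and among protein-coding genes other than histones (-0.97). The same held without WT replicate 2, WT replicate 4 or DKO replicate 3 (-0.91, -0.96 and -0.86). The adjusted p of Tmem173 stayed under 0.05 in all 16 alternatives.

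Aim2 (ENSMUSG00000037860.15, plus strand of chromosome 1 from 173350879 to 173466040) is the sensor of the DNA inflammasome. Its normalized counts were 542, 499, 459 and 658 in WT and 90.4, 375, 219 and 144 in DKO. The genotypes did not overlap, and the DKO libraries were widely spread, with replicate 1 lowest and replicate 2 highest. The mean fell from 540 ± 86.2 to 207 ± 124 (SD, n = 4 each), or -1.38 on the log2 scale (SE 0.39, adjusted p = 0.0335 by edgeR, exact permutation p = 0.0286). This call was the least secure of the 4. The adjusted p exceeded 0.05 when any 1 of 6 libraries was omitted. It was 0.0838, 0.0737, 0.0549 and 0.0954 without WT replicates 1 to 4, and 0.0546 and 0.0804 without DKO replicates 3 and 4.

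The fall of Aim2 went together with that of myeloid markers. Summed granulocyte and monocyte markers were 5455, 46422, 31116 and 34914 normalized counts in DKO replicates 1 to 4. DKO replicates 1 and 2 were lowest and highest for both Aim2 and these markers. The sum was mostly Mpo and Prtn3, at 3829 and 1351 in DKO replicate 1 and 36256 and 7955 in DKO replicate 2. Mpo, a granule enzyme of myeloid progenitors and the marker with the highest level in that list, fell by 2.23 on the log2 scale (edgeR adjusted p = 0.0165). Of the 9 markers tested, 5 passed with a fall of more than 1, beside 2.43% of all genes tested. S100a8 and S100a9 had positive log2 fold changes (1.45, SE 0.82, and 0.16, SE 1.31) and the other 7 negative ones. Ly6g was at 0 in all libraries. Among macrophage markers, 2 of 12 tested passed as lower (Adgre1 and Lyz2), beside 10.8% of all genes tested, and 3 of the 12 had positive log2 fold changes. No macrophage marker was at 0 in all 8 libraries. For STING the order differed, since DKO replicate 1, with the fewest myeloid marker counts, had nearly the same Tmem173 count as DKO replicate 2. The part of these cells in the fall of Aim2, Tmem173 or Tbk1 was not tested.

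**Figure D2:**
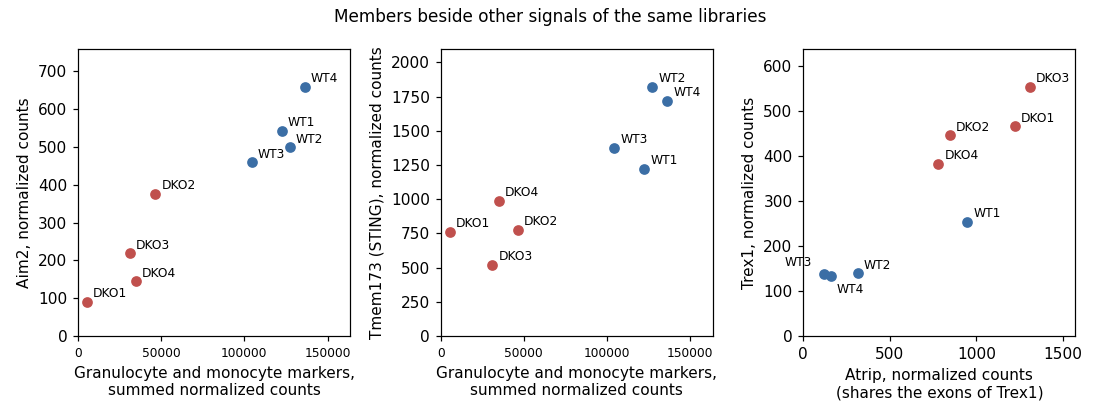
Normalized counts of Aim2 and of Tmem173 against the summed normalized counts of granulocyte and monocyte markers, and of Trex1 against Atrip, for each WT (blue) and DKO (red) library. The marker sum is mostly Mpo and Prtn3. Aim2 was lowest in DKO1, where the markers summed to 5455, and WT1 was the highest WT library for both Trex1 (254) and Atrip (948).

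Of the 2 restraining enzymes, Trex1 rose and Samhd1 did not pass. Trex1 (ENSMUSG00000049734.9, minus strand of chromosome 9 from 109057933 to 109059734) had 254, 139, 138 and 134 normalized counts in WT against 467, 446, 554 and 383 in DKO. All DKO libraries were above all WT libraries (exact permutation p = 0.0286), and WT replicate 1 stood above the other WT libraries. The mean rose from 166 ± 58.7 to 463 ± 70.6 (SD, n = 4 each), or 1.48 on the log2 scale (SE 0.27, adjusted p = 0.00685 by edgeR). It remained between 1.38 and 1.75 with each library left out.

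The count of Trex1 is uncertain because all 1147 of its exon bases are also annotated as exons of Atrip, a gene of the DNA damage response on the same strand. Atrip had 948, 313, 119 and 157 normalized counts in WT against 1221, 847, 1310 and 781 in DKO (1.44 on the log2 scale, SE 0.58, adjusted p = 0.107 by edgeR), and WT replicate 1 was again the highest WT library. With the counts of both genes summed, an alternative chosen after the data were seen, the log2 fold change was 1.45 (SE 0.46, adjusted p = 0.0486 by edgeR). How the counting divided reads between the 2 genes was not tested.

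Samhd1 (ENSMUSG00000027639.16, minus strand of chromosome 2 from 157097533 to 157135265) had 2221, 2230, 1872 and 2467 normalized counts in WT against 1727, 2152, 2381 and 2113 in DKO. The libraries overlapped broadly. The difference of DKO from WT was -0.07 on the log2 scale (SE 0.12, adjusted p = 0.724 by edgeR, 95% interval -0.34 to 0.20), and 0.04 with upper-quartile scaling.

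Of the pair of IRF3 kinases, Tbk1 fell and Ikbke did not pass. Tbk1 (ENSMUSG00000020115.3, minus strand of chromosome 10 from 121546455 to 121586787) had 2351, 2055, 1771 and 2048 normalized counts in WT against 1127, 1315, 1211 and 1608 in DKO, without overlap (exact permutation p = 0.0286). Its mean fell from 2057 ± 237 to 1315 ± 210 (SD, n = 4 each), or -0.64 on the log2 scale (SE 0.13, adjusted p = 0.0114 by edgeR). It stayed under an adjusted p of 0.05 in all 16 alternatives and did not reach the 2-fold threshold in any of them.

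Ikbke (ENSMUSG00000042349.13, minus strand of chromosome 1 from 131254343 to 131279606), which unlike Tbk1 is known to be inducible, had 532, 498, 649 and 505 normalized counts in WT against 422, 856, 344 and 766 in DKO. The DKO libraries split above and below the WT range, with replicates 2 and 4 high and replicates 1 and 3 low. The difference of DKO from WT was 0.13 on the log2 scale (SE 0.29, adjusted p = 0.788 by edgeR, 95% interval -0.52 to 0.77). Whether the changes of Tbk1 and Ikbke differ from each other was not tested.

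Irf3 (ENSMUSG00000003184.15, plus strand of chromosome 7 from 44997648 to 45002848) had 4452, 4598, 4770 and 4167 normalized counts in WT against 4012, 4462, 5250 and 4346 in DKO. The DKO libraries lay on both sides of the WT range. Irf3 was the least variable member within WT, with a coefficient of variation of 5.69%. The difference of DKO from WT was 0.01 on the log2 scale (SE 0.10, adjusted p = 0.970 by edgeR), with a 95% interval of 86.6% to 117% of WT. It shares 88 exon bases with Bcl2l12 on the opposite strand.

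Zbp1 (ENSMUSG00000027514.14, minus strand of chromosome 2 from 173206612 to 173218923) was barely expressed. Its raw counts were 25, 5, 7 and 0 in WT and 96, 27, 46 and 0 in DKO, and a count of 0 allows up to 3 counts in a library. The 3 DKO libraries with counts were above all WT libraries, and DKO replicate 4 had none. The log2 fold change of 2.37 had a standard error of 1.36 (edgeR adjusted p = 0.245, exact permutation p = 0.286), so that no change was detectable at this depth.

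**Figure D3:**
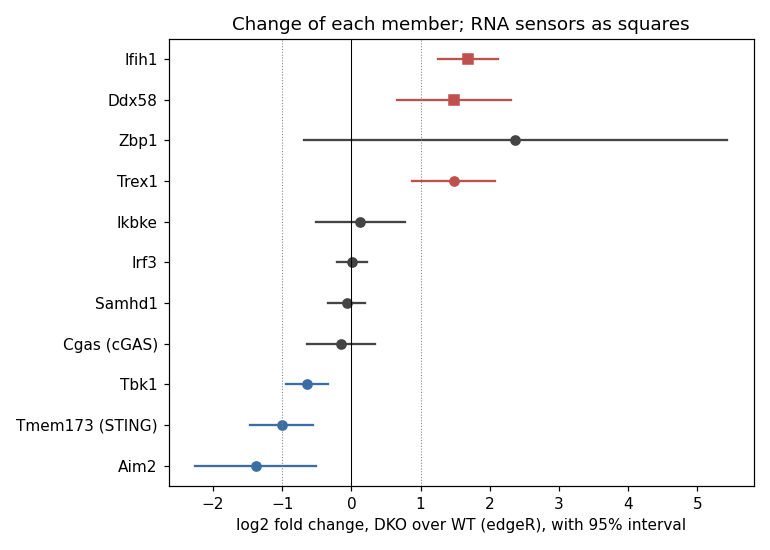
Log2 fold change of DKO over WT (horizontal axis, edgeR) with 95% intervals for the 9 members (circles) and the RNA sensor genes Ifih1 and Ddx58 (squares); red and blue mark an adjusted p under 0.05, dotted lines a 2-fold change. Trex1 (1.48) lies on the side of Ifih1 (1.68) and Ddx58 (1.48), while Tbk1, Tmem173 and Aim2 lie on the opposite side of 0 and the interval of Zbp1 spans -0.69 to 5.43.

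In all, WT and DKO values were fully separated for 4 of the 9 members, beside 28.1% of all genes tested. In DKO replicate 3 the difference of log2 CPM from the WT mean was 1.78 for Trex1, -1.54 for Tmem173, -0.76 for Tbk1 and -1.28 for Aim2, whose sign follows from the separation. Of the cytosolic RNA sensors in the same fit, Ifih1, which encodes MDA5, rose by 1.68 on the log2 scale and Ddx58, which encodes RIG-I, by 1.48 (edgeR adjusted p = 0.00143 and 0.0213).

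To compare the members with each other, levels were expressed per length, as RPKM, in which reads are scaled to the merged exon length and the effective library size. In WT, Irf3 was highest at 29.7 ± 1.69 (SD, n = 4), above 87.4% of all genes tested. Tmem173 (12.7 ± 2.35) and Tbk1 (11.98 ± 1.38) followed and overlapped each other, as did Cgas (5.90 ± 0.68) and Samhd1 (5.47 ± 0.61), and Aim2 (3.51 ± 0.56) and Trex1 (3.30 ± 1.17). Ikbke (1.38 ± 0.18) and Zbp1 (0.059 ± 0.075) were lowest, Zbp1 above only 3.40% of genes. In DKO, the order changed below Irf3 (29.9 ± 3.47). Trex1 came second at 9.18 ± 1.40 and overlapped Tbk1 (7.66 ± 1.22), which overlapped Tmem173 (6.33 ± 1.59), while Aim2 (1.35 ± 0.81) lay beside Ikbke (1.51 ± 0.63). The merged exon length includes every annotated transcript, so that levels of genes with long annotated variants such as Samhd1 and Ikbke are understated. The level and rank of Trex1 also depend on how reads were divided between it and Atrip, which was not tested.

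**Figure D4:**
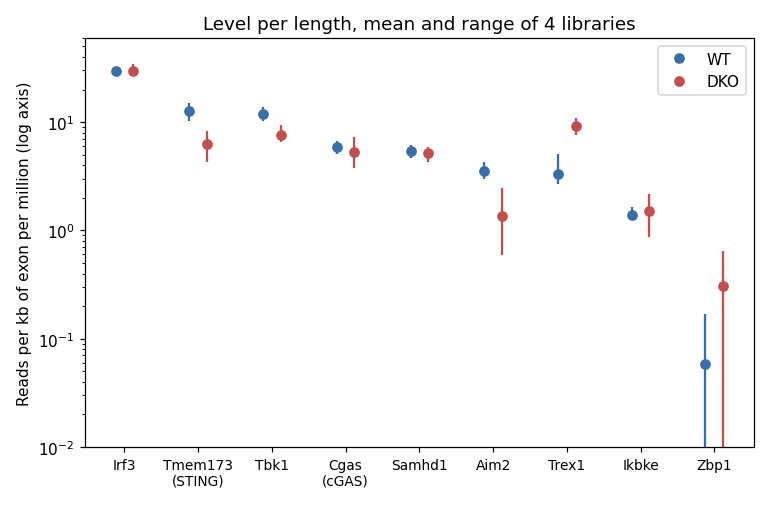
RPKM (log axis) of the 9 members, ordered by WT; points are means and lines the range of 4 libraries, and the lines of Zbp1 run off the axis because each genotype had a library at 0. Trex1, whose count is uncertain because Atrip shares its exons, moves from 3.30 in WT to 9.18 in DKO, and Aim2 from 3.51 to 1.35.

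The genes whose log2 CPM was most like that of a member over the 8 libraries were found among 12338 genes with at least 100 normalized counts on average. The libraries of both genotypes enter, so the difference between genotypes is part of each correlation. For Trex1 these were Ifi35 and Ifih1, both ISGs (Pearson r of 0.983 and 0.980). For Tmem173 they were Bcas1 and Kctd1 (0.984 and 0.982), for Tbk1 Arhgap18 and Anapc1 (0.990 and 0.985), and for Aim2 Rab44 and Il12rb2 (0.998 and 0.996). Cgas, which did not separate the genotypes, was most like the mitotic gene Ube2c (0.943) and Irf3 like Coa6 (0.979). The closest genes to Samhd1, Ikbke and Zbp1 were Golga5, Ccdc122 and Prrg1 (0.953, 0.936 and 0.939).

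The other genes of the pathway were taken from lists by role. Their counts stand beside 10.7% of all genes tested that were higher and 10.8% that were lower. Of 28 other DNA sensors listed, 24 were in the table and 19 were tested. Only Ifi203, an AIM2-like receptor gene that like Aim2 is on chromosome 1, passed, and it was lower, with 1114, 966, 895 and 1097 normalized counts in WT against 94.6, 450, 298 and 460 in DKO (-1.64 on the log2 scale, SE 0.40, adjusted p = 0.0200 by edgeR). As for Aim2, DKO replicate 1 was lowest. AIM2-like receptor genes are similar in sequence, and their separate counts are uncertain. The other AIM2-like receptor genes tested did not pass. Mndal, Ifi207, Ifi209 and Ifi211 had log2 fold changes of -1.10, -1.95, -1.69 and -1.62 with SE of 0.63, 1.48, 0.87 and 0.56, Ifi206 was at -0.49 (SE 1.26) and Ifi204 at 0.47 (SE 0.48). The genotypes did not overlap for Ifi209 and Ifi211. None of the sensors tested outside this family passed, and their log2 fold changes lay between -0.29 (Lrrfip1) and 0.34 (Dhx36). Those named here were named after their values were seen. Ddx41, Prkdc, Xrcc5, Xrcc6 and Mre11a, the genes of a helicase and of DNA repair proteins, were between -0.27 and 0.07. The genotypes did not overlap for Xrcc6 and Mre11a either, beside 28.1% of all genes tested. The median over the 19 genes was -0.23.

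Of 18 other nucleases and enzymes that limit immune nucleic acids, 4 were higher and 0 lower by edgeR, beside 10.7% and 10.8% of all genes. At an unadjusted p under 0.05, 2 were lower, and DESeq2 called 1 lower. These 2 were Pld4 and Exog, named after their values were seen. Their log2 fold changes were -1.85 (SE 0.68) and -0.42 (SE 0.15), with edgeR adjusted p-values of 0.0795 and 0.0823. For Pld4 the genotypes did not overlap, beside 28.1% of all genes tested. Of the 4 that were higher, Dnase1l2 was the only one past 2-fold. It had 29.3, 39.6, 26.9 and 44.6 normalized counts in WT against 117, 69.7, 115 and 81.5 in DKO (1.44 on the log2 scale, SE 0.37, adjusted p = 0.0234 by edgeR). Dnase2a, a lysosomal DNase required for digestion of the nuclei that erythroblasts expel, rose by 0.50 on the log2 scale, the mitochondrial nuclease gene Endog by 0.63, and Adar, the RNA editing enzyme that hides self dsRNA, by 0.81. The edgeR adjusted p-values of these 3, which were named after their values were seen, were 0.0346, 0.0376 and 0.0209. The subunits of RNase H2 did not pass, with log2 fold changes of 0.19, -0.10 and 0.12 for Rnaseh2a, Rnaseh2b and Rnaseh2c.

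Among 29 tested regulators of cGAS and STING, 4 were higher and 10 lower, with a median log2 fold change of -0.15. Usp18, an ISG whose product limits interferon signalling, rose from 444 ± 116 to 2307 ± 860 normalized counts (SD, n = 4 each; log2 fold change 2.38, edgeR adjusted p = 0.00143). Nlrc3, which encodes an inhibitor of STING, fell from 351 ± 51.1 to 115 ± 68.1 (log2 fold change -1.62, edgeR adjusted p = 0.0366). Trim56, Tmem203 and Zcchc3, named after their values were seen, rose by 0.71, 0.61 and 0.48 on the log2 scale (edgeR adjusted p = 0.00913, 0.0163 and 0.00828). The remaining 9 lower genes changed by less than 2-fold, and they included genes for the transport of STING between the endoplasmic reticulum and the Golgi, named here after their values were seen. Sec24c, of the COPII coat, fell by 0.66 on the log2 scale, Copa, of the COPI coat, by 0.61, Stim1 by 0.53, Surf4 by 0.39 and Tmed2 by 0.32, with edgeR adjusted p-values of 0.00348, 0.00347, 0.00594, 0.0113 and 0.0481.

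Of 20 adaptors and partners of the kinases, 2 were higher and 8 lower, with a median of -0.26, beside 10.7% and 10.8% of all genes tested. Irf7, the interferon-inducible relative of Irf3, had 404, 98.1, 122 and 150.4 normalized counts in WT against 3815, 1021, 1610.4 and 1348 in DKO, and rose by 3.34 on the log2 scale (SE 0.56, adjusted p = 0.00531 by edgeR). WT replicate 1 and DKO replicate 1 were the highest of their groups. Chuk, an IKK kinase gene named after its value was seen, rose by 0.44 on the log2 scale (edgeR adjusted p = 0.0375). Irf5, another relative, fell from 867 ± 187 to 430.1 ± 80.7 (SD, n = 4 each; log2 fold change -1.01, edgeR adjusted p = 0.0101). Mavs, the mitochondrial adaptor of the RNA sensors, fell from 2033 ± 207 to 1159 ± 136 (SD, n = 4 each; log2 fold change -0.81, edgeR adjusted p = 0.00346) and was named after its value was seen. Stat6, a transcription factor also named after its value was seen, fell by 0.79 on the log2 scale (edgeR adjusted p = 0.00633). Tank and Azi2, adaptors that bind TBK1 and were also named after their values were seen, fell by 0.37 and 0.51 on the log2 scale (edgeR adjusted p = 0.0395 and 0.0201).

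Few partners of AIM2 and ZBP1 passed the test. Of 9 inflammasome genes tested, 0 passed by edgeR and 1 was higher both at an unadjusted p under 0.05 and by DESeq2, while 7 had negative log2 fold changes, including Pycard, the adaptor ASC, at -0.40 (edgeR adjusted p = 0.148). The gene with the unadjusted p under 0.05 was Casp4, a caspase that cleaves gasdermin D, at 1.47 on the log2 scale (edgeR adjusted p = 0.0642), and it was named after its value was seen. Of 6 partners of ZBP1 in cell death, 1 was lower, Casp8, with -0.57 on the log2 scale (adjusted p = 0.00821 by edgeR), beside 10.8% of all genes tested. Ripk3, the kinase that ZBP1 engages, had 4830, 4820, 4813 and 5072 normalized counts in WT against 2443, 4208, 5130.2 and 4593 in DKO, with DKO replicate 1 lowest and DKO replicate 3 above all WT libraries.

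**Figure D5:**
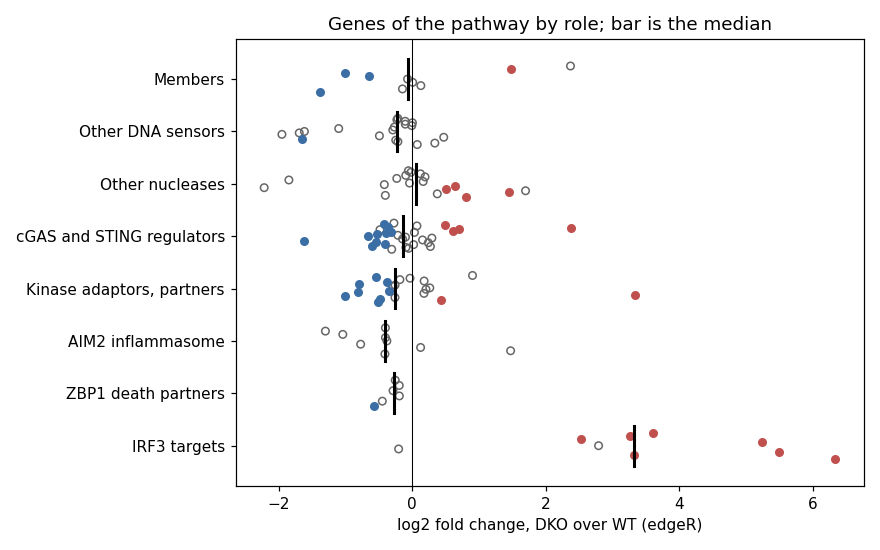
Log2 fold change of DKO over WT (horizontal axis, edgeR) for the tested genes of each list, with the list median as a bar; filled points had an adjusted p under 0.05 (red higher, blue lower). The IRF3 targets have a median of 3.32, and the medians of the other lists lie between -0.40 and 0.05.

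Downstream of the kinases, interferon genes themselves were almost absent. Of 21 interferon ligands listed, 16 had no count in any library and 0 passed the low-count filter. Ifnb1 was found in 1 library, DKO replicate 3, with 14 counts, and in none of the WT libraries, each of which allows up to 3 counts. Ifnk had 6.08 to 9.47 normalized counts in WT and 0 to 17.8 in DKO. Ifna1, Ifna2 and Ifnz had at most 4 counts in a library. By contrast, of 9 tested genes that IRF3 and interferon can induce, 7 rose by more than 2-fold and 0 fell by edgeR, with 0 lower also at an unadjusted p under 0.05 and by DESeq2. Over all genes tested, 6.19% rose by more than 2-fold. Ccl5, Ifit1 and Isg15 had the largest changes. Their log2 fold changes were 6.33, 5.50 and 5.24. Ifit2 was an exception, at 368 ± 51.9 normalized counts (SD, n = 4) in WT against 320 ± 77.0 in DKO (log2 fold change -0.20, edgeR adjusted p = 0.553).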

How the data were processed

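The deposited values are whole-number counts per gene. The authors trimmed reads with fastp 0.21.0, mapped them to mm10 with HISAT2 2.2.1, removed alignments of low quality and counted with StringTie 1.3.3b and prepDE. The counts had not been normalized or pooled. Identifiers were matched to GENCODE M21 (GRCm38) without version, 52489 of 52636. Whether counting used strand is not given in the sources used here.

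Genotype and replicate followed the labels. WT and DKO were compared in R 4.3.3 with edgeR 4.0.16 (filterByExpr, TMM, robust quasi-likelihood test, Benjamini-Hochberg adjustment over 17378 genes) and no covariate. Standard errors were derived from the F statistic. Log2 CPM used a prior count of 2. Intervals and zero limits cover these libraries only, and zero limits cover counting error only. No library was a copy of another (chi-square over genes, 18.3 or more for each gene on average). The steps were tested on simulated data.

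Alternatives were DESeq2 1.42.0, other scalings and filters, protein-coding genes other than histones, a replicate block and each library left out. The 9 members and the lists were chosen with earlier results of these data known. Genes named were the members, up to 3 genes per list and direction with the largest changes among those beyond 2-fold at an adjusted p under 0.05, the interferon genes with counts, the highest marker of a list, the markers at 0 and the most alike genes. All other list genes were named after their values were seen.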

Additional observations from a re-analysis of the deposited data

Results flagged for a closer look

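Of 18 groups of 4 libraries tested for an outlying sample (9 members in 2 genotypes), 1 was flagged. Trex1 in WT replicate 1, at 254 normalized counts, lay far above the other WT libraries, which had 134 to 139. Chance flags about 1 in 20 such groups. The same library had the highest WT counts of Atrip (948), Irf7 (404) and Isg15 (138). Without it the log2 fold change of Trex1 was 1.75 (edgeR adjusted p = 0.00952).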

How the results depend on the processing

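Trex1, Tmem173 and Tbk1 kept their direction and an adjusted p under 0.05 in all 16 alternatives of processing. Aim2 kept its direction in all of them and an adjusted p under 0.05 in 9, between 0.00256 and 0.0954. Its log2 fold change was -1.56 with the replicate block (adjusted p = 0.0563) and -1.84 to -1.13 with each library left out, and the adjusted p exceeded 0.05 in 6 of these 8 fits. The log2 fold change of Trex1 was 1.38 to 1.75, of Tmem173 -1.16 to -0.86 and of Tbk1 -0.75 to -0.57 with each library left out. Cgas, Samhd1, Ikbke, Irf3 and Zbp1 did not pass in any alternative (smallest adjusted p 0.0781, Zbp1 with the replicate block), and Zbp1 could not be fitted with at least 10 counts in every library.

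The number of members lower by more than 2-fold was 1 instead of 2 with upper-quartile scaling, with at least 10 counts in every library, among protein-coding genes other than histones and with the replicate block. It was 0 to 2 with each library left out, as Tmem173 lies at the threshold and Aim2 near an adjusted p of 0.05. Over all genes, 1076 were higher and 423 lower by more than 2-fold. DESeq2 called 1658 higher, and 9747 genes had no adjusted p there. The replicate block called 613 higher. With each library left out the counts were 566 to 1148 higher and 243 to 521 lower. They fell to 566, 650 and 633 higher and to 258, 260 and 243 lower without WT replicate 1, 2 or 4. At any fold, 1867 were higher and 1878 lower, against 2492 and 1242 with upper-quartile scaling, which moved the median log2 fold change of all genes from 0.03 to 0.14. The replicate block gave 1026 and 1083, and leaving out a library 858 to 1915 and 898 to 2012, with 858, 1011 and 948 higher and 898, 1050 and 957 lower without WT replicate 1, 2 or 4. The cause was not tested, other than that fewer samples were fitted.

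Replicate numbers did not pair the libraries, since deviations of same-numbered libraries from their group means correlated at -0.102, 0.053, -0.028 and -0.007. The summed Trex1 and Atrip counts were added after the data were seen. Depth limits the statements on Zbp1, the interferon genes and the low AIM2-like receptor and nuclease genes, some of which were not tested or had an SE above 1.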
